A study of Homo sapiens with 9 samples.

Results

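The 10 genes described here encode the core machinery of microRNAs, from their cutting in the nucleus to the silencing complex: *DROSHA*, *DGCR8*, *XPO5*, *DICER1*, *TARBP2*, the Argonautes *AGO1*, *AGO2*, *AGO3* and *AGO4*, and *TNRC6A*. They were chosen by name, with earlier results of these data known. Every probe set that the annotation of the PrimeView array assigns to only 1 of them was taken. This gave 31 of the 49293 probe sets tested, for 10 of the 18132 genes that have a probe set of their own. *AGO1* and *AGO2* have 1 such probe set each and *TNRC6A* has 6. The study asked what changes in the transcriptome of lung cancer cells when *TDRD9*, which encodes a Tudor-domain RNA helicase known from the piRNA pathway of the germ line, is silenced. NCI-H1993 cells, an established line of lung adenocarcinoma, were transfected for 72 h with siTDRD9-1 or siTDRD9-2, which are different siRNAs against the *TDRD9* transcript, or with a control siRNA (siControl), in 3 independent cultures for each siRNA and with 1 Affymetrix array per culture. All 3 groups were thus transfected with a small RNA, no untransfected cells were compared, and 1 cell line stands for the tumour type.

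A microRNA gene is transcribed into a long primary transcript, from which the Microprocessor, made of the nuclease DROSHA and its RNA-binding partner DGCR8, cuts a hairpin. Exportin-5, encoded by *XPO5*, carries the hairpin to the cytoplasm, where the nuclease DICER1, with its partner TARBP2, trims it to a duplex. One strand is loaded into an Argonaute protein, and the GW182 protein encoded by *TNRC6A* joins the Argonaute and recruits the enzymes that shorten the poly(A) tail of the target. AGO2 is the human Argonaute known for cutting a fully matched target, which is also the step that siRNAs use.

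The arrays measured transcripts of the machinery and of its targets, not the microRNAs. The mature sequences on which the results below bear are those of miR-15a-5p and miR-16-5p, whose hairpins lie within the host gene *DLEU2*, and those of 4 members of the let-7 family, whose targets were measured. They were taken from RefSeq (GRCh38.p14) and are printed 5′ to 3′ with the seed, bases 2 to 8, in capitals. The seed AGCAGCA is shared within the first pair and GAGGUAG within the let-7 group.
miR-15a-5p (chr13:50049167-50049188, minus strand): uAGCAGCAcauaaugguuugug
miR-16-5p (chr13:50049027-50049048, minus strand): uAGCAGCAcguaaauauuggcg
let-7a-5p (chr9:94175962-94175983, plus strand): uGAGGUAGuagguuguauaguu
let-7b-5p (chr22:46113691-46113712, plus strand): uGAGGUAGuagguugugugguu
let-7g-5p (chr3:52268336-52268357, minus strand): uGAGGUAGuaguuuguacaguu
miR-98-5p (chrX:53556299-53556320, minus strand): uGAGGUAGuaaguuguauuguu

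Among the 10 genes, only *DICER1*, with siTDRD9-1, and *TNRC6A*, with both siRNAs, had probe sets that passed in the main model described below, all lower. The 250 bases upstream of a start of *DICER1* and of *TNRC6A* are therefore shown, from the RefSeq promoter table of GRCh38.p14. Capitals mark GGGCGG, the core of a GC box, and CCAAT, both searched on both strands. Each promoter held 1 match to each, which are common motifs: of 35116 promoters of this length, 42.6% held GGGCGG and 32.0% held CCAAT. The TATA box TATAAA, held by 10.7% of promoters, was in neither. The E-box CACGTG (6.34% of promoters) and the ETS motif ACTTCCG (5.69%) had no match in them either, which says only that these letters are not in these windows. The CpG count was 30 for *DICER1* and 21 for *TNRC6A*, against a median of 11 over all promoters. *DICER1* spans chr14:95086228-95158010. It has 5 starts in the table, of which the first is shown, and the *TNRC6A* start lies within the gene's span of chr16:24610205-24826218. Binding or methylation was not measured at either.
*DICER1* (chr14:95157530-95157779, minus strand): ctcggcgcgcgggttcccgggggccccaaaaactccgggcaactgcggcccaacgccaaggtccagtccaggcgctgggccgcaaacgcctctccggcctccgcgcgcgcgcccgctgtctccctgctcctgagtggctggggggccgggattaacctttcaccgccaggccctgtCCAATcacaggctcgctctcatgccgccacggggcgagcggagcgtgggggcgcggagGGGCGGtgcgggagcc
*TNRC6A* (chr16:24729401-24729650, plus strand): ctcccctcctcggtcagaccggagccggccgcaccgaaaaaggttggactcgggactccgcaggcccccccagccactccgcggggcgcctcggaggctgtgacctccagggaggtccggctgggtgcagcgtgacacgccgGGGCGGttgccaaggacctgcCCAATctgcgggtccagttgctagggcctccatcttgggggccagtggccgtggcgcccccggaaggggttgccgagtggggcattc

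The silenced gene was checked first. *TDRD9* was measured by 1 probe set, with 4.62 ± 0.33 log2 units in siTDRD9-1 cultures, 6.10 ± 0.038 in siTDRD9-2 cultures and 6.80 ± 0.14 in siControl cultures (SD, n = 3 each). Its log2 difference was -2.18 with siTDRD9-1 (limma, adjusted p = 2.22e-05) and -0.70 with siTDRD9-2 (adjusted p = 0.00931), so the second siRNA left more of the transcript, by 1.48 (adjusted p = 0.000426). Without single arrays, the siTDRD9-2 difference had an adjusted p of up to 0.0469 (without siControl replicate 3). Arrays of 1 group correlated at 0.994 to 0.998 and arrays of different groups at 0.988 to 0.995. The brightest probe set of *KRT7*, *KRT8*, *KRT18*, *KRT19*, *EPCAM* and *CDH1*, all epithelial genes, was between 11.27 and 13.49 on every array, whereas the lung markers *NKX2-1*, *NAPSA* and *SFTPB* were between 5.00 and 6.76 and *SFTA3* between 2.19 and 2.73. The label on RNA isolation names an HCT line, and the colorectal marker *CDH17* was between 3.14 and 3.41 and *CDX2* between 6.34 and 6.69. Of the 27 epithelial and lung probe sets, 3, all of *KRT8*, were higher with siTDRD9-2 at an adjusted p under 0.01. Of 24 fibroblast probe sets, 2 passed with siTDRD9-1 and 1 with siTDRD9-2, among them *LUM*, which was dim (2.93 to 3.12 with siTDRD9-1, 2.89 to 3.40 with siTDRD9-2 and 3.67 to 3.97 with siControl). Of 19 blood and endothelial probe sets, 0 and 1 passed, and of 12 colorectal ones, 0 and 0. The 24 probe sets for the poly-A RNA controls, bacterial transcripts that are added to the RNA before labelling, averaged 7.60 ± 0.191 in siTDRD9-1 arrays, 7.66 ± 0.101 in siTDRD9-2 arrays and 8.35 ± 0.128 in siControl arrays (SD, n = 3 each), and their part in the results below was not tested. In bulk cultures, less RNA of a gene per cell and fewer cells with that RNA cannot be told apart.

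Of the 31 probe sets, 4 were lower with siTDRD9-1 and 3 were lower with siTDRD9-2 at an adjusted p under 0.01 from limma, called passing below, and none was higher. They belonged to *DICER1* and *TNRC6A*. The count with siTDRD9-1 was 2 without siControl replicate 1, siControl replicate 2 or siTDRD9-1 replicate 1. The share that passed was 12.9% with siTDRD9-1, against 4.54% of all probe sets in either direction and 2.12% in the lower direction, and 9.7% with siTDRD9-2, against 5.19% and 2.23%. None passed and changed at least 2-fold, as 0.714% of all probe sets did with siTDRD9-1 and 0.809% with siTDRD9-2. At an unadjusted p under 0.05, 13 member probe sets differed with siTDRD9-1 (3 higher, 10 lower; background 23.4%) and 12 with siTDRD9-2 (3 higher, 9 lower; background 25.4%). The cultures of the 2 groups did not overlap in 14 of the 31 probe sets with siTDRD9-1 (4 higher, 10 lower; background 27.1%) and in 14 with siTDRD9-2 (3 higher, 11 lower; background 29.6%). The median log2 difference over the 31 probe sets was -0.067 with siTDRD9-1 and -0.059 with siTDRD9-2, and over all probe sets it was 0.00162 and -0.0186. Both comparisons use the same siControl arrays, so they are not independent of each other.

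**Figure D1:**
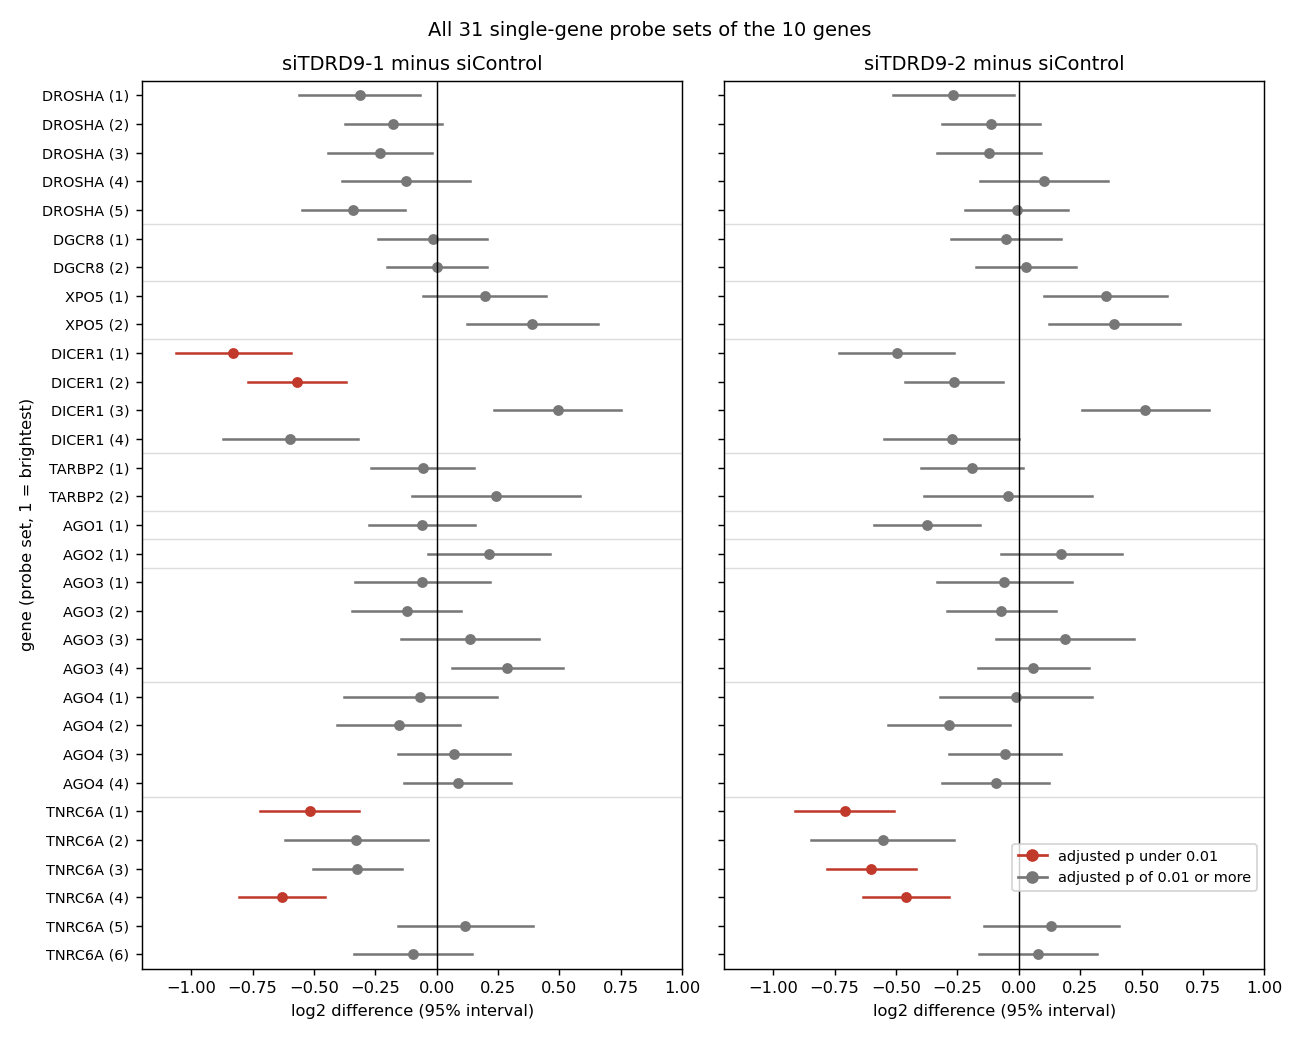
Log2 difference of each of the 31 probe sets, for siTDRD9-1 minus siControl (left) and siTDRD9-2 minus siControl (right), with 95% intervals from limma; the number in parentheses orders a gene's probe sets from the brightest (1), and red marks an adjusted p under 0.01. The red points are 4 on the left and 3 on the right, all below 0 and all of *DICER1* or *TNRC6A*, and both panels use the same 3 siControl arrays.

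For the Microprocessor and export, no probe set passed in the limma model of all arrays. Of the 9, 4 with siTDRD9-1 and 3 with siTDRD9-2 had an unadjusted p under 0.05 (background 23.4% and 25.4%). *DROSHA*, the nuclease, has 5 probe sets, and its brightest one gave 9.18, 9.38 and 9.22 in siTDRD9-1 cultures, 9.47, 9.36 and 9.09 in siTDRD9-2 cultures and 9.49, 9.57 and 9.66 in siControl cultures. Every culture of either siRNA thus lay below every siControl culture, with log2 differences of -0.31 (adjusted p = 0.106) and -0.27 (adjusted p = 0.158). The siTDRD9-1 difference passed when arrays were weighted (-0.37, adjusted p = 0.00276), but the share of all probe sets that passed with weights was not calculated. All 5 *DROSHA* probe sets had a negative difference with siTDRD9-1, between -0.34 and -0.12. With siTDRD9-2, 4 of 5 did, and the differences ran from -0.27 to 0.10. The largest *DROSHA* difference with siTDRD9-1, -0.34 (adjusted p = 0.0428), was in the dimmest probe set, at a mean level of 4.06. *DGCR8*, its RNA-binding partner, differed least of the 10 genes in its brightest probe set with siTDRD9-1: it gave 7.45, 7.42 and 7.67 with siTDRD9-1, 7.59, 7.50 and 7.33 with siTDRD9-2 and 7.50, 7.58 and 7.50 with siControl. The *DGCR8* cultures overlapped in all comparisons, and the 95% intervals of its differences were -0.24 to 0.21 with siTDRD9-1 and -0.27 to 0.17 with siTDRD9-2. The second *DGCR8* probe set, at a mean level of 3.17, differed by 0.0018 with siTDRD9-1 and 0.029 with siTDRD9-2.

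*XPO5* encodes the exporter of the hairpins, and both of its probe sets had higher means with either siRNA, although neither passed. Its brightest probe set gave 7.79, 7.66 and 7.65 with siTDRD9-1, 7.73, 7.78 and 8.07 with siTDRD9-2 and 7.66, 7.36 and 7.50 with siControl. The differences were 0.20 (adjusted p = 0.349) and 0.35 (adjusted p = 0.0676), and only with siTDRD9-2 were all cultures above siControl. The second probe set gave 7.04, 7.18 and 6.94 with siTDRD9-1, 6.93, 6.98 and 7.26 with siTDRD9-2 and 6.61, 6.52 and 6.86 with siControl. There both siRNAs were above siControl in every culture, by 0.39 each (adjusted p = 0.0654 and 0.06). The mean of the 2 *XPO5* probe sets was 0.29 higher with siTDRD9-1 (adjusted p = 0.0953 over 18132 gene means) and 0.37 higher with siTDRD9-2 (adjusted p = 0.0333).

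*DICER1* encodes the nuclease that makes the mature duplex, and its brightest probe set had the largest difference among the 31. It gave 8.15, 8.27 and 8.24 with siTDRD9-1, 8.61, 8.49 and 8.56 with siTDRD9-2 and 8.83, 9.09 and 9.23 with siControl. The 3 groups did not overlap: siTDRD9-1 cultures were lowest, siTDRD9-2 cultures lay between and siControl cultures were highest. The brightest *DICER1* probe set fell to 0.563 of the siControl signal with siTDRD9-1 (log2 difference -0.83, SE 0.107, adjusted p = 0.000757). It was at 0.708 with siTDRD9-2 (-0.50, SE 0.107, adjusted p = 0.0114), which missed the threshold. It passed with siTDRD9-1 whichever array was left out (-0.94 to -0.74). With siTDRD9-2 it passed without siControl replicate 1 (-0.61, adjusted p = 0.00473), the lowest of the siControl values, and also with a variance trend (adjusted p = 0.00368), array weights (adjusted p = 0.00169), cyclic loess (adjusted p = 0.00946) or without dim probe sets (adjusted p = 0.00711). The shares of all probe sets that passed in these fits were not calculated.

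The other *DICER1* probe sets did not all move the same way. The second brightest gave 7.63, 7.62 and 7.48 with siTDRD9-1, 7.99, 7.80 and 7.85 with siTDRD9-2 and 8.15, 8.21 and 8.07 with siControl, and it fell with siTDRD9-1 (-0.57, SE 0.0912, adjusted p = 0.00263) but did not pass with siTDRD9-2 (-0.26, adjusted p = 0.0858). This fall had an adjusted p of up to 0.0173 without siControl replicate 1, siControl replicate 2 or siTDRD9-1 replicate 1. The dimmest of the 4 had the same order of groups, with differences of -0.60 (adjusted p = 0.0111) and -0.27 (adjusted p = 0.199). The third was opposite: it gave 7.56, 7.55 and 7.46 with siTDRD9-1, 7.62, 7.61 and 7.40 with siTDRD9-2 and 7.10, 7.21 and 6.78 with siControl. Every culture of either siRNA was above siControl there, by 0.49 (adjusted p = 0.021) and 0.51 (adjusted p = 0.0153). The array's naming marks the *DICER1* probe sets that fell, including the brightest, as possibly shared with transcripts of other genes. It does not mark the third, which rose, in this way. The mean of the 4 probe sets, which joins opposite signs, was -0.38 with siTDRD9-1 (adjusted p = 0.0109) and -0.13 with siTDRD9-2 (adjusted p = 0.344), so the fall with siTDRD9-1 did not pass as a gene mean.

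**Figure D2:**
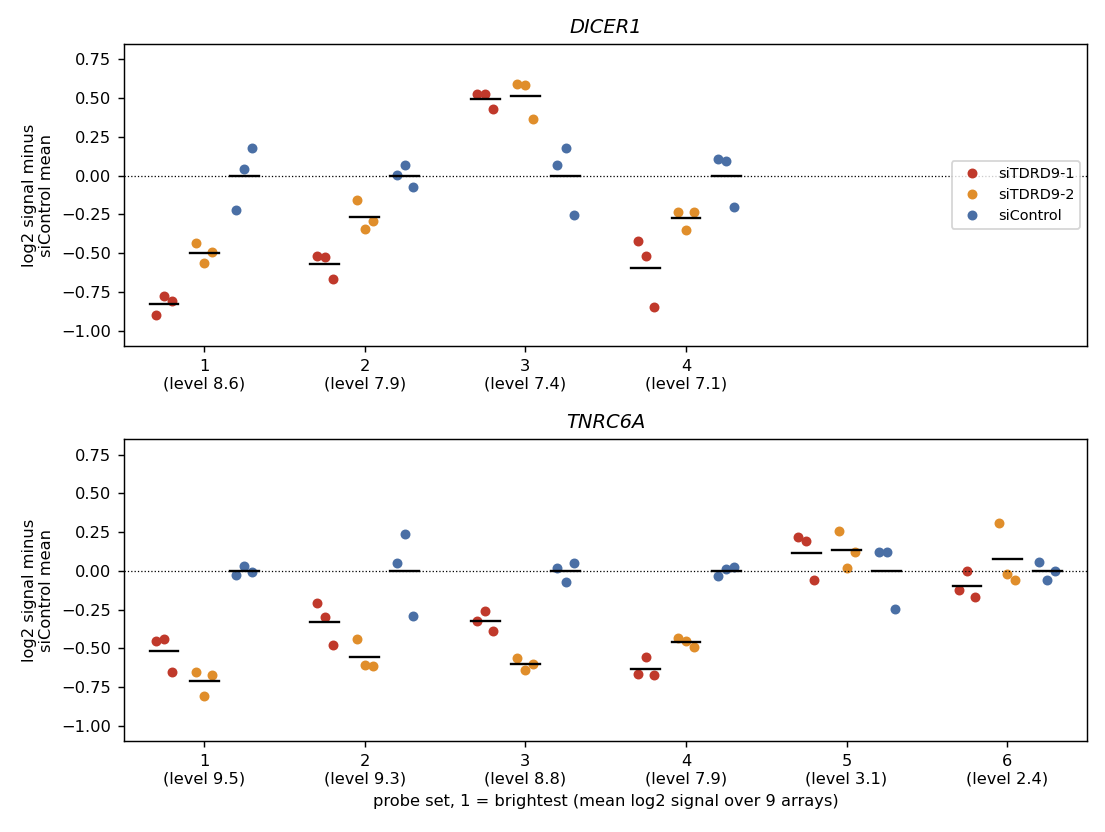
Log2 signal of each array minus the siControl mean of the same probe set, for the 4 probe sets of *DICER1* (top) and the 6 of *TNRC6A* (bottom), ordered from the brightest; points are arrays, coloured by group, bars are means of 3 arrays, and the level under each number is the mean log2 signal over 9 arrays. The third *DICER1* probe set lies above 0 with both siRNAs while the others lie below, and the 2 dim *TNRC6A* probe sets stay near 0 while the 4 brighter ones lie below.

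*TARBP2* encodes the double-stranded RNA-binding partner of DICER1, and neither of its probe sets passed. The brightest gave 8.40, 8.19 and 8.28 with siTDRD9-1, 8.07, 8.20 and 8.19 with siTDRD9-2 and 8.28, 8.29 and 8.47 with siControl. All siTDRD9-2 cultures were below siControl there, by 0.19 on average (log2 difference -0.19, adjusted p = 0.242), while siTDRD9-1 cultures overlapped (-0.06, adjusted p = 0.797). In the dimmer probe set, 1 siTDRD9-1 culture at 5.82 stood apart from the other two, at 5.19 and 5.17, and the differences were 0.24 with siTDRD9-1 and -0.045 with siTDRD9-2.

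The Argonautes were measured by 10 probe sets, and none passed in any comparison in the limma model of all arrays. *AGO1* passed with siTDRD9-2 when arrays were weighted (-0.45, adjusted p = 0.00424), again without a share of all probe sets beside it. At an unadjusted p under 0.05 there was 1 Argonaute probe set with siTDRD9-1, 2 with siTDRD9-2 and 2 between the siRNAs (background 23.4%, 25.4% and 20.5%). *AGO2* gave 9.27, 9.19 and 9.08 with siTDRD9-1, 8.95, 9.10 and 9.37 with siTDRD9-2 and 9.05, 8.94 and 8.91 with siControl. The siTDRD9-1 cultures were all above siControl by a small margin, and the siTDRD9-2 cultures overlapped with siControl. The differences of *AGO2* were 0.21 (95% interval -0.04 to 0.46, adjusted p = 0.297) and 0.17 (-0.07 to 0.42, adjusted p = 0.387), and that with siTDRD9-2 was 0.058 without siTDRD9-2 replicate 3.

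*AGO1* was the Argonaute with the largest difference. It gave 6.63, 6.52 and 6.50 with siTDRD9-1, 6.33, 6.14 and 6.23 with siTDRD9-2 and 6.56, 6.76 and 6.50 with siControl. The siTDRD9-2 cultures were below all the others, by 0.37 on the log2 scale against siControl (difference -0.37, SE 0.0983, adjusted p = 0.029), whereas siTDRD9-1 cultures overlapped with siControl (-0.06, adjusted p = 0.798). The siRNAs differed from each other by -0.32 for siTDRD9-2 over siTDRD9-1 (adjusted p = 0.0898). A further probe set, which matches both *AGO1* and *AGO3* and was not counted among the 31, had the same pattern, with means of 7.58 with siTDRD9-1, 7.04 with siTDRD9-2 and 7.49 with siControl. Its differences were 0.09 (adjusted p = 0.684) and -0.45 (adjusted p = 0.0197), and siTDRD9-2 was 0.54 below siTDRD9-1 (log2 difference -0.54, adjusted p = 0.0137). *AGO4*, *AGO1* and *AGO3* lie next to each other on chromosome 1, from 35807636 to 36072500 (GRCh38.p14).

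*AGO3* and *AGO4*, which share the small RNA binding of the family, differed little in their brightest probe sets. The brightest *AGO3* probe set gave 6.70, 6.62 and 6.32 with siTDRD9-1, 6.47, 6.61 and 6.56 with siTDRD9-2 and 6.39, 6.78 and 6.65 with siControl, a difference of -0.06 with either siRNA. Over the 4 *AGO3* probe sets the differences ran from -0.12 to 0.29 with siTDRD9-1 and from -0.07 to 0.19 with siTDRD9-2. The 0.29 (adjusted p = 0.106) was in the dimmest of them, at a mean level of 4.84. Every siTDRD9-1 culture there was above every siControl and every siTDRD9-2 culture. The brightest *AGO4* probe set, at percentile 35.0 of all probe sets by mean level, gave 4.29, 4.72 and 4.52 with siTDRD9-1, 4.46, 4.38 and 4.85 with siTDRD9-2 and 4.52, 4.49 and 4.71 with siControl. Its differences were -0.067 with siTDRD9-1 and -0.011 with siTDRD9-2. The other 3 *AGO4* probe sets averaged 2.36 to 2.70 over the 9 arrays, below the level of 4.17 that marks the dimmest 30% of probe sets, and there a change in the transcript could go unmeasured. They differed by -0.16 to 0.086 with siTDRD9-1 and by -0.28 to -0.057 with siTDRD9-2, and the one at -0.28 (adjusted p = 0.139) was below siControl in every siTDRD9-2 culture. Over all 10 Argonaute probe sets, the 95% intervals ran from -0.404 to 0.515 with siTDRD9-1 and from -0.589 to 0.47 with siTDRD9-2. A 2-fold change of the signal lay outside all of them. For the dim *AGO4* probe sets this cannot exclude a 2-fold change of the transcript.

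**Figure D3:**
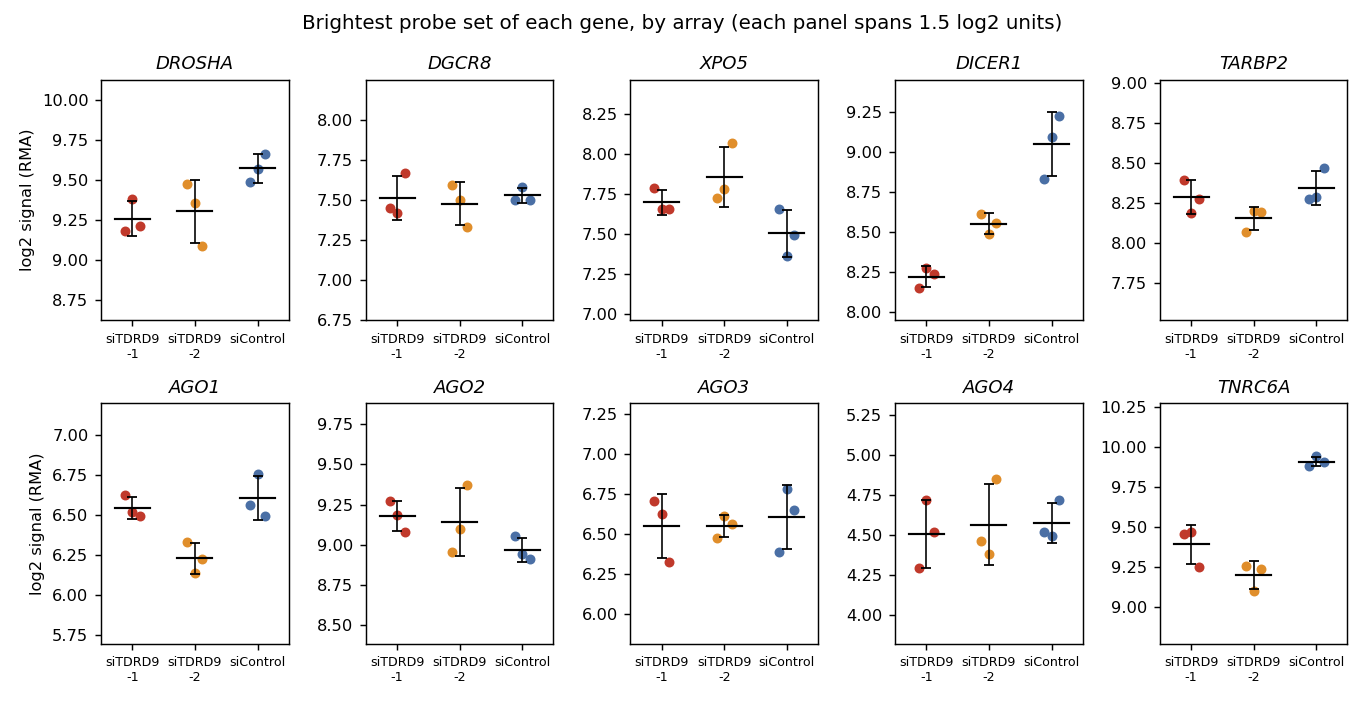
Log2 signal (RMA) of the brightest probe set of each of the 10 genes on the 9 arrays, with siTDRD9-1, siTDRD9-2 and siControl from left to right; points are arrays, long bars are means and error bars are the SD of 3 arrays. Each panel spans 1.5 log2 units around its own centre, so distances but not heights can be set against each other: *DICER1*, *TNRC6A* and, by a small margin, *DROSHA* show siControl arrays above all siRNA arrays, *DGCR8* and *AGO3* show full overlap.

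*TNRC6A* encodes the GW182 scaffold that links the Argonautes to deadenylation, and it was the gene that passed with both siRNAs. Its brightest probe set gave 9.46, 9.47 and 9.26 with siTDRD9-1, 9.26, 9.10 and 9.24 with siTDRD9-2 and 9.88, 9.94 and 9.91 with siControl. The siControl cultures lay close together and above every siRNA culture. The differences were -0.52 with siTDRD9-1 (SE 0.0919, adjusted p = 0.00468) and -0.71 with siTDRD9-2 (SE 0.0919, adjusted p = 0.000653), which leave 0.699 and 0.612 of the siControl signal. The siTDRD9-2 fall passed whichever array was left out, while that of siTDRD9-1 did not pass without siControl replicate 1, 2 or 3 or without siTDRD9-1 replicate 1 or 3 (adjusted p of 0.0136 to 0.0258), and not in a fit of the 2 groups alone (adjusted p = 0.0105).

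The fourth-brightest *TNRC6A* probe set gave 7.58, 7.69 and 7.57 with siTDRD9-1, 7.81, 7.79 and 7.75 with siTDRD9-2 and 8.21, 8.25 and 8.27 with siControl. It too was lower with both siRNAs, at -0.63 for siTDRD9-1 (SE 0.0805, adjusted p = 0.000696) and -0.46 for siTDRD9-2 (adjusted p = 0.00372), and here the siTDRD9-1 cultures were the lowest. Its siTDRD9-2 fall had an adjusted p of up to 0.0208 without any 1 siControl array or any 1 siTDRD9-2 array. Of all probe sets, 0.542% passed in the lower direction with both siRNAs, and these 2 of *TNRC6A* were the members that did. The third gave 8.82, 8.89 and 8.76 with siTDRD9-1, 8.59, 8.51 and 8.55 with siTDRD9-2 and 9.16, 9.08 and 9.20 with siControl, and fell with siTDRD9-2 (-0.60, adjusted p = 0.000988) but did not pass with siTDRD9-1 (-0.32, adjusted p = 0.0298). The second, with a wide spread in siControl (9.60, 9.79 and 9.25), had differences of -0.33 (adjusted p = 0.157) and -0.55 (adjusted p = 0.0193). The array's naming marks the second and the third, but not the brightest or the fourth, as possibly shared with transcripts of other genes. The 2 remaining probe sets, at mean levels of 3.09 and 2.37, differed by 0.12 and -0.10 with siTDRD9-1 and by 0.13 and 0.08 with siTDRD9-2. As a mean of its 6 probe sets, which include these dim ones, *TNRC6A* was -0.30 with siTDRD9-1 (adjusted p = 0.0346) and -0.35 with siTDRD9-2 (adjusted p = 0.0136), and did not pass.

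Between the siRNAs, tested as siTDRD9-2 over siTDRD9-1, none of the 31 probe sets passed, where 1.95% of all probe sets did. At an unadjusted p under 0.05, 7 differed (4 higher, 3 lower; background 20.5%), and in 8 the cultures did not overlap (background 23.3%). For *DICER1*, 3 of the 4 probe sets had every siTDRD9-2 culture above every siTDRD9-1 culture, with differences of 0.33 (adjusted p = 0.102), 0.31 (adjusted p = 0.0768) and 0.32 (adjusted p = 0.17) from the brightest down. For *TNRC6A* the third-brightest probe set was lower with siTDRD9-2 than with siTDRD9-1 (-0.28, adjusted p = 0.078) and the fourth was higher (0.17, adjusted p = 0.258), so its probe sets did not order the siRNAs the same way. With array weights the brightest probe sets of *DICER1* (0.36, adjusted p = 0.00654), *AGO1* (-0.41, adjusted p = 0.00287) and *TNRC6A* (-0.29, adjusted p = 0.00894) passed between the siRNAs. Weights also raised the count of the 31 that passed with siTDRD9-1 from 4 to 11. The share of all probe sets that passed with weights was not calculated, so these passes have no background beside them.

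The proteins that work with the 10 genes were described as 4 lists, with 72 genes and 249 probe sets. With siTDRD9-1, 23 probe sets passed (12 higher, 11 lower), which is 9.24%, and with siTDRD9-2 24 passed (14 higher, 10 lower), which is 9.64%, beside 4.54% and 5.19% of all probe sets. These counts were 10 to 15 with siTDRD9-1 without siControl replicate 2 or 3 or any 1 siTDRD9-1 array, and 9 to 13 with siTDRD9-2 without siControl replicate 2 or 3 or siTDRD9-2 replicate 2. Medians were -0.0403 and -0.0105, near those of all probe sets. The lists were chosen with earlier results of these data known, so their shares are a description and not a test.

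Among the nuclear partners of the Microprocessor, 5 of 72 probe sets passed with siTDRD9-1, 2 higher and 3 lower, and 3 with siTDRD9-2, all higher. These are 6.94% and 4.17%, beside 4.54% and 5.19% of all probe sets. *SAFB2*, a nuclear scaffold protein known as a helper of the Microprocessor, gave 8.03, 8.08 and 7.95 with siTDRD9-1, 7.89, 8.19 and 7.89 with siTDRD9-2 and 6.57, 6.18 and 6.30 with siControl in the probe set that rose most (1.67, adjusted p = 4.2e-05, and 1.64, adjusted p = 2.84e-05). These groups were far apart, but the brightest of its 5 probe sets differed by -0.08 and -0.16, so the probe sets of *SAFB2* did not move together. The other probe sets that passed, named after their values were seen, were of *DDX5* (-0.69), *HNRNPA1* (-0.52) and *METTL3* (-0.50) with siTDRD9-1 and of *SAFB* (1.09) with siTDRD9-2.

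Among genes of hairpin tailing and turnover, 3 of 35 probe sets rose with siTDRD9-1 and 4 rose with siTDRD9-2. These are 8.57% and 11.4%, beside 4.54% and 5.19% of all probe sets. None passed in the lower direction, where 2 had an unadjusted p under 0.05 with each siRNA. *TUT7*, a terminal uridylyltransferase that adds uridines to let-7 hairpins, gave 5.35, 5.09 and 5.10 with siTDRD9-1, 4.87, 5.39 and 4.84 with siTDRD9-2 and 4.24, 4.05 and 3.51 with siControl in 1 of its 2 probe sets (1.25, adjusted p = 0.00196, and 1.10, adjusted p = 0.00329). The brighter one, at a mean of 8.26, differed by -0.19 and -0.16. The other probe sets that rose, named after their values were seen, were of *ADAR* (1.36) and *DIS3L2* (0.88) with siTDRD9-1 and of *TUT4* (1.06) and *PARN* (0.80 and 0.58) with siTDRD9-2. *LIN28A* and *LIN28B*, whose proteins bind let-7 hairpins, were dim, with means of at most 3.16.

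Among genes of Argonaute loading, 2 of 36 probe sets passed with siTDRD9-1, 1 in each direction, and 3 with siTDRD9-2, all lower. These are 5.56% and 8.33%, beside 4.54% and 5.19% of all probe sets. *PRKRA*, which encodes PACT, a partner of DICER1 beside TARBP2, was between 7.97 and 8.15 with siTDRD9-1, between 8.03 and 8.18 with siTDRD9-2 and between 8.53 and 8.75 with siControl. It fell with both siRNAs in the brightest probe set, with differences of -0.60 for siTDRD9-1 (adjusted p = 0.00244) and -0.56 for siTDRD9-2 (adjusted p = 0.00321). Its other probe set had differences of -0.39 and -0.38 (adjusted p = 0.0136 and 0.0139), so both pointed the same way. Named after their values were seen, *IPO8* was the one that was higher with siTDRD9-1 (0.58), and 2 probe sets of the chaperone *HSP90AA1* were lower with siTDRD9-2 (-1.07 and -0.54).

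Among the effectors of silencing, which remove the tail and the cap of the target and degrade it, 106 probe sets were tested. Of these, 6 were higher and 7 lower past the threshold with siTDRD9-1, and the same held for 7 and 7 with siTDRD9-2. The shares were 12.3% and 13.2%, beside 4.54% and 5.19% of all probe sets. *CNOT6*, a catalytic deadenylase of the CCR4-NOT complex, fell with both siRNAs in 3 of its 4 probe sets, and the strongest fall with siTDRD9-1 was in the one that gave 7.66, 7.70 and 7.44 with siTDRD9-1, 7.79, 7.80 and 7.67 with siTDRD9-2 and 8.42, 8.55 and 8.51 with siControl. Its differences there were -0.89 (adjusted p = 0.000255) and -0.74 (adjusted p = 0.000671), and the fourth probe set, the brightest, had -0.23 and -0.47. Its paralog *CNOT6L* fell in 1 of 7 probe sets (-1.11 and -0.70), while the brightest differed by -0.03 and -0.12. The array's naming marks this falling *CNOT6L* probe set, and a *CNOT6* probe set that fell, as possibly shared with transcripts of other genes. *DDX6*, the helicase that couples silencing to decapping, rose in 2 of 3 probe sets (1.57 and 1.41 in the brighter of them, 1.09 and 0.77 in the other), and its brightest differed by -0.21 with either siRNA. *XRN1*, the exonuclease that degrades decapped RNA, rose in 1 of 4 (1.06 and 1.07), and its brightest differed by -0.45 and -0.16. The paralogs of *TNRC6A*, *TNRC6B* and *TNRC6C*, had no probe set that passed, with differences of -0.24 and -0.34 for the brightest of *TNRC6B* and of 0.23 and 0.10 for that of *TNRC6C*.

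Host genes of microRNAs and targets of let-7 stand upstream and downstream of this machinery. Of 14 host genes 7 were analysed, with 21 probe sets, and 1 passed with either siRNA. This was the brightest of *DLEU2*, the host of miR-15a and miR-16 whose sequences are given above, which was between 5.97 and 6.28 in siTDRD9-1 cultures, between 5.93 and 6.23 in siTDRD9-2 cultures and between 7.16 and 7.64 in siControl cultures. This probe set fell by more than 2-fold with both (-1.27, adjusted p = 0.000226, and -1.36, adjusted p = 0.000138). The other 2 *DLEU2* probe sets, at mean levels of 2.60 and 1.82, differed by -0.11 and -0.015 with siTDRD9-1 and by -0.026 and -0.031 with siTDRD9-2. The share of host probe sets that passed, 4.76% with either siRNA, was near the 4.54% and 5.19% of all probe sets, and the array's naming marks the *DLEU2* probes as possibly matching other transcripts. Whether the mature miR-15a and miR-16 changed was not measured.

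Of 13 let-7 targets 10 were analysed, with 32 probe sets, of which 3 passed with siTDRD9-1 (1 higher, 2 lower; 9.38%, background 4.54%) and 5 with siTDRD9-2 (1 higher, 4 lower; 15.6%, background 5.19%). *HMGA2*, an architectural chromatin protein and a known let-7 target, gave 8.20, 8.44 and 8.53 with siTDRD9-1, 7.89, 7.65 and 8.07 with siTDRD9-2 and 9.13, 8.95 and 9.61 with siControl in the brightest of its 6 probe sets, the one that fell with both (-0.84, adjusted p = 0.00842, and -1.36, adjusted p = 0.000484). Over the 6, differences ran from -0.84 to 0.45 with siTDRD9-1 and from -1.36 to -0.084 with siTDRD9-2. *IGF2BP2*, an RNA-binding protein, gave 8.55, 8.63 and 8.45 with siTDRD9-1, 8.80, 8.72 and 8.78 with siTDRD9-2 and 9.53, 9.80 and 9.68 with siControl in the brighter of its 2 probe sets, which fell with both (-1.13, adjusted p = 8.2e-05, and -0.90, adjusted p = 0.000201). The other, at a mean of 3.45, differed by -0.16 and -0.31 and did not pass. *IGF2BP3* was split: its brightest probe set had differences of -0.46 (adjusted p = 0.0101) and -0.52 (adjusted p = 0.00491), and the other rose with both (0.76, adjusted p = 0.00163, and 0.61, adjusted p = 0.0049). The array's naming marks the rising *IGF2BP3* probe set and the falling *IGF2BP2* probe set as possibly shared with transcripts of other genes. A dimmer probe set of *HMGA2* was also lower with siTDRD9-2 (-0.90, adjusted p = 0.00266) but not with siTDRD9-1 (0.12). *MYC*, measured by 1 probe set, differed by -0.16 and 0.13 and did not pass. The median over the 32 probe sets was -0.0996 with siTDRD9-1 and -0.121 with siTDRD9-2, against 0.00162 and -0.0186 over all probe sets. This list too was chosen with earlier results known, so its shares are a description only.

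**Figure D4:**
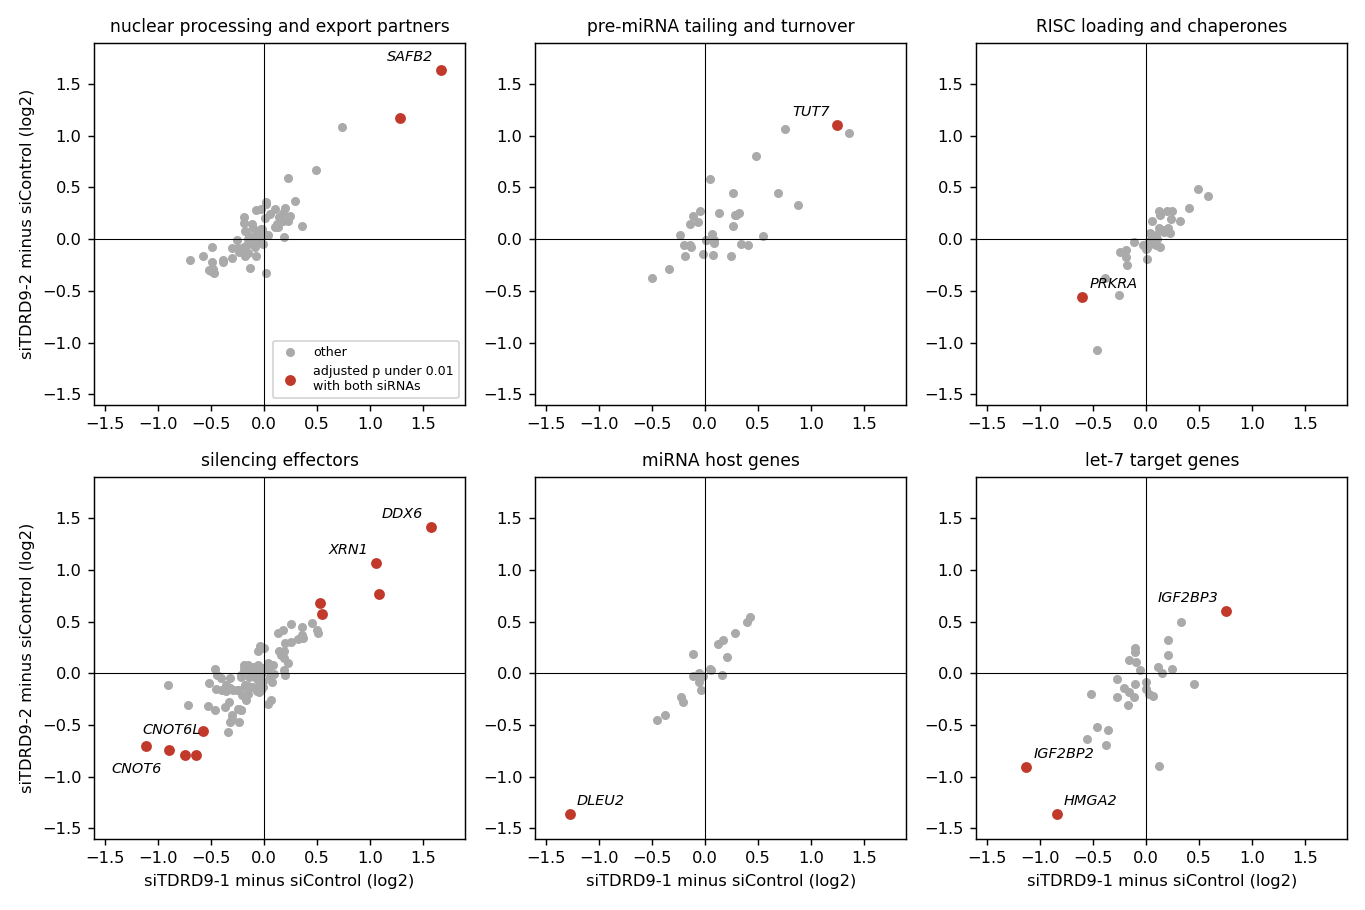
Log2 difference with siTDRD9-1 (x axis) and siTDRD9-2 (y axis), each minus siControl, for every probe set of the 4 partner lists, the microRNA host genes and the let-7 targets; red marks an adjusted p under 0.01 with both siRNAs, and names are given for up to 4 genes of a list. Both axes subtract the same siControl arrays, so they are not independent; *SAFB2*, *TUT7*, *DDX6* and *XRN1* lie at the upper right and *CNOT6*, *CNOT6L*, *PRKRA*, *DLEU2*, *HMGA2* and *IGF2BP2* at the lower left.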

How the data were processed

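Total RNA of 9 cultures was hybridized to Affymetrix PrimeView arrays, 1 per culture. The authors deposited log2 values that RMA had produced in Affymetrix Expression Console, after background correction, quantile normalization and summary of the probes; per the labels limma was also used, with versions not given in the sources used here. The labels' text on RNA isolation and labelling names an HCT line and a whole-transcript kit; the sample labels were followed. The values were analysed unchanged, so levels of different probe sets cannot be compared, and precision is set by 3 arrays per group.

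Genes were assigned with the array's annotation, and 102 control probe sets were kept apart. Besides those pointed out above, the array's naming marks others as possibly shared between genes, such as the brightest of *DGCR8* and *AGO3*. All 49293 others entered 1 limma model of 3 group means (limma 3.58.1, R 4.3.3), with empirical Bayes moderation and Benjamini-Hochberg adjustment over all of them. A probe set passed at an adjusted p under 0.01 and was called if it also changed 2-fold. On simulated data, 60% of 100 probe sets changed 2-fold and 13% of 100 changed 1.5-fold passed with siTDRD9-1, and 50% and 11% with siTDRD9-2. Only these probe sets were changed there, far fewer than passed in the real data. The adjusted threshold was therefore stricter in the simulation, and recovery in the real data may be higher. The members and lists were chosen with earlier results of these data known. Every member gene is described, with per-array values for chosen probe sets and differences or their ranges for the rest. From each other list up to 4 genes are named, those with a probe set that passed with both siRNAs in 1 direction, ordered by mean absolute difference, and other genes are marked or serve as background. Replicate numbers were not used to pair the cultures in the main model. Deviations of same-numbered arrays correlated at -0.15 to 0.15 and those of differently numbered arrays at -0.255 to 0.169. With 3 arrays per group, these values cannot show whether the cultures were paired. The paper describes 3 independent transfection experiments but does not say whether the replicate numbers stand for them. Alternatives were a 2-group fit, a replicate block, array weights, a variance trend, cyclic loess, median centring, looser thresholds, gene means, removal of dim probe sets (below the 30th percentile) and removal of each array in turn.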

Additional observations from a re-analysis of the deposited data

Results flagged for a closer look

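Of 334 probe sets of the members, partner lists, host genes, targets and *TDRD9*, 4 differed between the siRNAs at an adjusted p under 0.01. Of all probe sets, 1.95% did, so the count of 4 is no excess. None of the 4 belonged to the 10 genes. *TDRD9* itself was 1.48 log2 units higher with siTDRD9-2 than with siTDRD9-1 (adjusted p = 0.000426), with differences from siControl of -2.18 for siTDRD9-1 and -0.70 for siTDRD9-2. *HSP90AA1*, which encodes the chaperone that opens Argonautes for loading, was lower with siTDRD9-2 in 1 probe set (siTDRD9-2 over siTDRD9-1 -0.61, adjusted p = 0.00845), with -0.46 for siTDRD9-1 (adjusted p = 0.0202) and -1.07 for siTDRD9-2 (adjusted p = 0.000167) against siControl. *AJUBA*, a LIM protein of the silencing complex, was higher with siTDRD9-2 (0.79, adjusted p = 0.00252), with -0.90 for siTDRD9-1 and -0.11 for siTDRD9-2 against siControl. A dimmer probe set of *HMGA2* was lower with siTDRD9-2 (-1.02, adjusted p = 0.00267), with 0.12 for siTDRD9-1 and -0.90 for siTDRD9-2 against siControl.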

How the results depend on the processing

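The count of member probe sets that passed with siTDRD9-1, 4, was 11 with array weights, 8 at an adjusted p under 0.05 and 2 to 4 with 1 array left out, with 2 without siControl replicate 1, siControl replicate 2 or siTDRD9-1 replicate 1. With siTDRD9-2, 3 became 6 with a variance trend, 7 with array weights, 5 without dim probe sets, 7 at an adjusted p under 0.05 and 2 to 3 with 1 array left out. Between the siRNAs, 0 became 4 with array weights. At an adjusted p under 0.05 and a 1.5-fold change, 3 and 2 were called, against 0 and 0. Partner probe sets that passed with siTDRD9-1, 23, became 45 with a variance trend, 79 with array weights, 57 at an adjusted p under 0.05 and 10 to 23 with 1 array left out (10 without siTDRD9-1 replicate 1). With siTDRD9-2, 24 became 15 in the fit of 2 groups and 9 to 24 with 1 array left out (9 without siTDRD9-2 replicate 2). The shares of all probe sets under these other settings were not calculated. It therefore cannot be said whether these changes in count were particular to the members and partners, and their cause was not tested. With the replicate number as a block, 4 member probe sets passed with siTDRD9-1 (3 of them shared with the fit without it) and 4 with siTDRD9-2 (3 shared). The brightest *TNRC6A* probe set then had an adjusted p of 0.0105 with siTDRD9-1, and *TDRD9* with siTDRD9-2 was -0.70 with an adjusted p of 0.0153. *TDRD9* with siTDRD9-2 was -0.67 with cyclic loess (adjusted p = 0.0118) and -0.77 to -0.63 with 1 array left out.

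Values that changed sign were all small, at most 0.0952 in size, with adjusted p of 0.527 or more, in 13 results of *AGO1*, *AGO2*, *AGO3*, *AGO4*, *DGCR8*, *DROSHA* and *TARBP2*. With array weights, *AGO3* with siTDRD9-1 was 0.0251, *TARBP2* with siTDRD9-1 0.0459 and *DGCR8* between the siRNAs 0.0512. As gene means, *AGO3* was 0.0610 with siTDRD9-1 and 0.0296 with siTDRD9-2, *TARBP2* was 0.0924 with siTDRD9-1, and *AGO4* between the siRNAs was -0.0952. With cyclic loess, *AGO4* with siTDRD9-2 was 0.0339, *DGCR8* with siTDRD9-1 0.0218 and *DROSHA* between the siRNAs -0.00181. With median centring, *AGO3* between the siRNAs was 0.0234. With 1 array left out, the ranges with siTDRD9-1 were -0.114 to 0.0182 for *AGO1*, -0.167 to 0.0550 for *AGO3*, -0.171 to 0.0413 for *AGO4*, -0.0938 to 0.0306 for *DGCR8* and -0.111 to 0.00539 for *TARBP2*. With siTDRD9-2 they were -0.168 to 0.0284 for *AGO3*, -0.154 to 0.0816 for *AGO4* and -0.112 to 0.0204 for *DGCR8*. Between the siRNAs they were -0.154 to 0.0559 for *AGO2*, -0.114 to 0.0762 for *AGO3*, -0.0871 to 0.160 for *AGO4*, -0.0964 to 0.0420 for *DGCR8* and -0.0370 to 0.155 for *DROSHA*. The arrays of 3 cultures per group recovered few changes of 1.5-fold on simulated data, in which fewer probe sets changed than in the real data. Among the dimmest 30%, where signal limits what can be seen, lay 7 member probe sets.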

Other observations

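Over the 9 arrays, the single-gene probe sets whose pattern was most like that of *AGO2* were of *PPME1* (Pearson r = 0.968), *CDK20* (r = 0.967) and *ORC5* (r = 0.966). For the brightest *DICER1* probe set they were of *RWDD1* (r = 0.993), *UBE2E2* (r = 0.992) and *TMEM168* (r = 0.991). These are the highest of 44988 probe sets searched, the arrays share 3 groups, and the values are a description only.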
